A study of Mus musculus with 80 samples.

Results

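The genes described here are named for mitochondrial ribosomal proteins, the nuclear-encoded subunits of the ribosome that works inside mitochondria. They were taken by name, as every gene whose symbol starts with Mrpl or Mrps followed by a digit, with no use of measured values. The rule found 76 genes among 18877 in the DEHP table and the same number among 17672 in the DCA table, 47 of them Mrpl and 29 Mrps. By the roles of their proteins, 30 belong to the large subunit with a bacterial counterpart, 19 to the large subunit without a same-named bacterial counterpart, 15 to the small subunit with a bacterial counterpart and 12 to the small subunit without one. Mrps18a and Mrps30 were counted with the large subunit, where their proteins sit despite their names.

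The study measured liver RNA by stranded total-RNA sequencing after ribosomal RNA depletion in male B6C3F1 mice with a labelled age of 4 weeks, and prepared the RNA of every animal from frozen liver and from formalin-fixed, paraffin-embedded (FFPE) liver. DEHP, di(2-ethylhexyl) phthalate, is a plasticizer. It was mixed into the feed for 7 days, at 0, 1500, 3000 and 6000 ppm, with 4 animals in each dose group, and these livers date from 2013. DCA, dichloroacetic acid, a by-product of water chlorination, was dissolved in the drinking water at 0, 1, 2 and 3.5 g/L, with 6 animals in each dose group, and these livers date from 1994. The length of the DCA exposure is not given in the sources used here. The labels name no transgene or deletion, and the 40 animals gave 80 libraries. Frozen RNA came from mixed lobes, whereas FFPE sections held the left lateral, caudate and right medial lobes of DEHP mice and the left lateral and right medial lobes of DCA mice, so preparation and lobe cannot be told apart.

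The mitochondrial ribosome translates the few proteins encoded by mitochondrial DNA, all of them subunits of the oxidative phosphorylation complexes. Its proteins are made in the cytosol from nuclear genes and imported, while its ribosomal RNAs are transcribed from mitochondrial DNA. It is poorer in RNA and richer in protein than its bacterial relatives, and several of its proteins have no bacterial counterpart. Hepatocytes are rich in mitochondria, and compounds that activate the nuclear receptor PPARα, as DEHP does in rodent liver, raise the genes of peroxisomal and mitochondrial fatty acid oxidation. In bulk liver, fewer cells of a type and less RNA per cell cannot be told apart.

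All 76 genes were found in the GENCODE vM21 annotation of GRCm38, on 17 chromosomes with at most 10 on any of them. Their longest transcripts were short, with a median of 1284 bases (range 463 to 7300) against 3188 for 11508 genes tested in frozen DEHP livers, and their GC content had a median of 50.5% against 49.8%. Exons of 16 members overlapped another protein-coding gene, 15 of them on the opposite strand, such as Mrpl43 with Twnk and Mrps25 with Nr2c2, and Mrps6 overlapped on the same strand. How the counting used strand is not given in the sources used here, so reads of those 16 genes may be shared with their partners. Mrpl23, Mrpl27, Mrpl48 and Mrps36 also have copies named as pseudogenes in RefSeq, which makes their values uncertain.

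The promoter sequences were searched because many nuclear genes for mitochondrial proteins are known targets of NRF1, of ETS factors such as GABP, and of YY1. RefSeq (GRCm38.p6) gave a window from 250 bases before to 50 bases after the start for 67 members. Searched on both strands, the NRF1 motif (GCGCA, then any base, then GCGC) was present in 12 of them (17.9%, against 5.19% of 27025 genes). The ETS motif CCGGAAG was present in 24 members (35.8%, against 9.93%). The YY1 motif AAGATGGCG was present in 8 members (11.9%, against 1.64%). Among 14481 genes whose windows had a GC content in the members' range, the shares were 6.53%, 13.9% and 2.24%. CCAAT was present in 40.3% of members and 41.1% of genes. At least 1 of the NRF1, ETS and YY1 motifs was present in 39 members, and 3 held both NRF1 and ETS motifs. No entry was found for Mrpl13, Mrpl15, Mrpl19, Mrpl38, Mrpl4, Mrpl54, Mrps28, Mrps34 or Mrps35.

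The 150 bases before the start are shown for 5 members, chosen for their dose or preparation values and for differing motifs, 5′ to 3′ on the gene's strand, with the motif matches in capitals. Mrpl45 (chr11:97315566-97315715, plus strand) was called higher at every DEHP dose. Mrpl17 (chr7:105811088-105811237, minus strand) rose with DEHP in both preparations. Mrpl12 (chr11:120484487-120484636, plus strand) and Mrpl43 (chr19:45006443-45006592, minus strand) were higher in FFPE than in frozen liver. Mrps11 (chr7:78782981-78783130, plus strand) was called in no dose comparison, and lies head to head with Mrpl46, with 413 bases of overlap. The capitals mark NRF1 matches in Mrpl45, Mrpl17 and Mrpl12, ETS matches in Mrpl43 and a YY1 match, on the other strand, in Mrps11.
Mrpl45: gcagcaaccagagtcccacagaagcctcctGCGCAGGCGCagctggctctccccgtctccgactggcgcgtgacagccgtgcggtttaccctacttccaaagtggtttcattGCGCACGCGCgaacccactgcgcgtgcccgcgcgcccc
Mrpl17: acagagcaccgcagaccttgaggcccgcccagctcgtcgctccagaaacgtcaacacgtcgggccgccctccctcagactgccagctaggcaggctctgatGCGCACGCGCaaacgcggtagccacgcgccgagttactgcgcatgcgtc
Mrpl12: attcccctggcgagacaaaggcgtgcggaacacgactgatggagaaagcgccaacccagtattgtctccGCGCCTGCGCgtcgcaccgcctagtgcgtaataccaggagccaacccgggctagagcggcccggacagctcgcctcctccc
Mrpl43: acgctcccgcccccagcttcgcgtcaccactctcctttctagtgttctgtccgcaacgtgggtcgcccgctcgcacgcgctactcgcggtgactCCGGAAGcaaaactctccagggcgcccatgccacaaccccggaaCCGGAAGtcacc
Mrps11: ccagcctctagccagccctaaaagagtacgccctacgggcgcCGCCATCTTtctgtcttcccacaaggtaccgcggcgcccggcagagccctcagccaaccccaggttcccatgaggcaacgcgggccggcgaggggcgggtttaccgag
A match describes letters and not a bound site.

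In frozen control liver these genes were expressed at moderate, uneven levels. On the authors' FPKM scale, which divides by transcript length, the median member stood at 13.8 in DEHP controls and 14.9 in DCA controls. Mrps21, a small subunit protein with a bacterial counterpart, was the highest member of both tables, at 47.8 ± 0.77 FPKM (SD, n = 4) in DEHP controls and 58.3 in DCA controls. Mrpl30 followed at 39.7 ± 4.4 and Mrpl18 at 35.8 ± 2.06 in DEHP controls, and their ranges of 35.6 to 44.2 and 33.1 to 37.6 overlapped, so this pair did not separate. In DCA controls the next highest were Mrpl52 at 49.4 and Mrpl30 at 41.3 FPKM. The lowest 3 were the same genes in both tables, Mrps25 (1.66 and 1.78 FPKM), Mrpl19 (2.24 and 2.87) and Mrpl35 (4.42 and 4.06).

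Library depth and ribosomal RNA differed by preparation. Total counts ran from 16582951 to 29550616 in frozen and from 11673034 to 18866106 in FFPE DEHP libraries. In DCA they ran from 3067666 to 16890024 in frozen libraries and from 109292 to 8434613 in FFPE libraries. The ribosomal RNA precursor Rn45s took 0.0939% to 1.57% of counts in frozen libraries, 1.32% to 5.03% in FFPE DEHP libraries and 4.89% to 84.2% in FFPE DCA libraries. Cyp4a14 and Ehhadh, fatty acid oxidation genes driven by PPARα, rose in frozen liver by 7.61 and 5.77 (log2) at 6000 ppm DEHP and by 10.08 and 5.24 at 3.5 g/L DCA. The summed level of 6 hepatocyte markers was 78587 to 94177 CPM (counts scaled to a common library total) in frozen DEHP controls and 60469 to 70691 at 6000 ppm, and 100283 to 123065 in frozen DCA controls and 73435 to 92795 at 3.5 g/L. These hepatocyte sums were lower at the top doses without overlap, and none of the 6 markers was at 0. At 3.5 g/L DCA the sums of 10 Kupffer cell markers (315 to 432 CPM in controls, 166 to 255 at the dose), 8 liver endothelial markers (454 to 515, 392 to 436) and 6 exocrine pancreas markers (15.02 to 23.2, 6.78 to 9.58, with Ctrb1 at 0 in the controls) were also lower without overlap. At 6000 ppm DEHP the sum of the 2 pancreas markers in the table was lower too (17.4 to 27.2 CPM in controls, 8.84 to 14.9 at the dose), while the Kupffer cell sum overlapped (196 to 320, 256 to 400). The part of these marker lists in the changes of the 76 genes was not tested.

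The share of all counts in the 76 genes lay above the control range in every treated group of frozen liver. It was 0.121% to 0.132% in DEHP controls, 0.139% to 0.155% at 1500 ppm, 0.140% to 0.161% at 3000 ppm and 0.137% to 0.168% at 6000 ppm. No treated DEHP library overlapped the controls, while the 3 treated groups overlapped each other. In DCA the share was 0.119% to 0.124% in controls, 0.128% to 0.142% at 1 g/L, 0.161% to 0.175% at 2 g/L and 0.147% to 0.164% at 3.5 g/L. None of the treated DCA groups overlapped the controls, and the 2 g/L group stood highest. In FFPE liver of DEHP mice the share was 0.100% to 0.108% in controls and 0.110% to 0.123% at 6000 ppm, again without overlap, and the lower doses overlapped the controls. After leaving out Rn45s and the clone-named genes, no treated FFPE group overlapped the controls. The share was then 0.132% to 0.144% in controls and 0.151% to 0.165% at 1500 ppm. It was 0.154% to 0.173% at 3000 ppm and 0.158% to 0.174% at 6000 ppm. Frozen DEHP controls were sequenced in only 2 of the runs. Within run H36399 the controls were at 0.121% to 0.125% and the 3000 ppm library at 0.148%. Within run H36451 the controls were at 0.127% to 0.132%, the 1500 ppm library at 0.144% and the 6000 ppm library at 0.168%. The frozen DCA controls shared a lane with 1 treated animal, at 1 g/L, which stood at 0.141%. At 2 and 3.5 g/L no library shared a lane with a control, and the effects of lane and dose cannot be told apart.

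**Figure D1:**
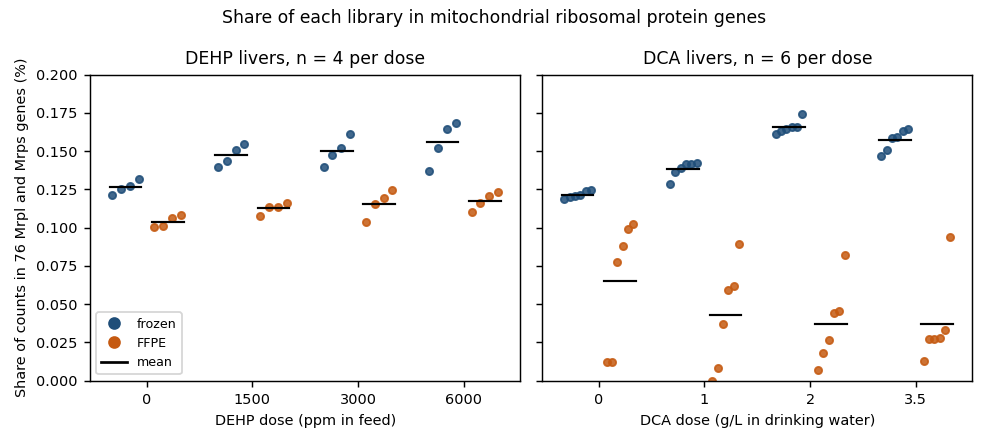
Share of each library's counts in the 76 mitochondrial ribosomal protein genes (y axis, percent) by dose (x axis, ppm in feed for DEHP and g/L in drinking water for DCA), with 1 point per library, frozen in blue and FFPE in orange, and bars for the mean. Frozen controls lie at 0.121% to 0.132% for DEHP and 0.119% to 0.124% for DCA, below every frozen treated library, and DCA FFPE libraries spread from 0 to 0.102%.

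In frozen liver of DEHP mice the individual changes were small and nearly all upward. At 1500 ppm 2 of the 76 genes passed the test, Mrpl45 and Mrpl51, both higher (2.63%, against 4.34% of all 13802 genes tested called higher and 2.14% lower). At 3000 ppm 20 were higher (26.3%, against 8.17% of all genes) and Mrpl4 was lower (6.48% of all genes were called lower). At 6000 ppm 10 were higher (13.2%, against 7.05% of all genes) and none was lower (4.72% of all genes). The median member changed by 0.22, 0.26 and 0.25 on the log2 scale at the 3 doses, beside medians of -0.03 for all genes, and 65, 66 and 66 members had a positive value. The doses share their 4 controls. At 6000 ppm 5 of the 30 large subunit members with a bacterial counterpart, 4 of the 19 large subunit members without one, 1 of 15 small subunit members with one and 0 of 12 without one were called. The test was edgeR's quasi-likelihood test with Benjamini-Hochberg adjustment over all genes, with a call at an adjusted p under 0.05.

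Mrpl45, a large subunit protein near the polypeptide exit that helps to hold the ribosome at the inner membrane, was called higher at all 3 doses. Its level in controls was 16.99, 20.1, 18.5 and 16.3 CPM (scaled by TMM). At 6000 ppm it was 23.03, 27.8, 25.3 and 29.6 CPM. Every treated library, at all 3 doses, lay above every control. The change at 6000 ppm was 0.55 ± 0.12 (log2 fold change ± SE, n = 4 against 4, edgeR adjusted p = 0.0053), and with the sequencing run as a term the value was 0.54 with an adjusted p of 0.064.

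Mrpl54, a large subunit protein without a bacterial counterpart, showed the greatest rise among called members at 6000 ppm. It stood at 5.81, 8.46, 7.95 and 7.28 CPM in controls and at 9.41, 12.7, 11.03 and 14.4 CPM at 6000 ppm, with no overlap. The change was 0.69 ± 0.16 (edgeR adjusted p = 0.011), and the call held in every alternative fit. At 1500 ppm all 4 libraries (8.90 to 11.1 CPM) were also above the controls, but the change of 0.44 ± 0.16 did not pass the test (edgeR adjusted p = 0.12).

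Mrpl14, which lies on the face of the large subunit that meets the small one, rose by 0.56 ± 0.16 at 6000 ppm (edgeR adjusted p = 0.029). Its controls were at 16.5, 12.5, 14.2 and 11.8 CPM and the treated livers at 15.4, 19.9, 19.9 and 25.96 CPM. The groups overlapped, since 1 treated library lay below the highest control. Without the animal at 25.96 CPM (animal 8C) the value was 0.42 and the adjusted p 0.13, and leaving out 44A, 64C, 45C or 75A also ended the call (adjusted p 0.055 to 0.068).

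The other called members of the large subunit at 6000 ppm were Mrpl16, Mrpl17, Mrpl11, Mrpl12, Mrpl40 and Mrpl51, with changes of 0.35 to 0.46. Mrpl11 and Mrpl12 belong to the flexible stalk region that recruits translation factors, and Mrpl12 is also known to bind the mitochondrial RNA polymerase. Mrpl11 changed by 0.35 (edgeR adjusted p = 0.015) and Mrpl12 by 0.35 (edgeR adjusted p = 0.049), while Mrpl10, the stalk's base, had 0.30 and was not called (edgeR adjusted p = 0.094). Mrpl17 stood at 23.3, 24.98, 22.3 and 25.5 CPM in controls and at 26.6, 34.6, 30.8 and 35.0 CPM at 6000 ppm. Its groups did not overlap, and it changed by 0.40 (edgeR adjusted p = 0.021). Mrps17, from the small subunit, was the only small subunit member called at this dose, with 0.38 (edgeR adjusted p = 0.026).

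Most named small subunit members moved upward by less than the test could call at 6000 ppm DEHP. Mrps2, Mrps5, Mrps7 and Mrps16, all with bacterial counterparts, had values of 0.23, 0.26, 0.21 and 0.34, and Mrps22 had 0.43 (edgeR adjusted p = 0.056). The 3 Mrps18 paralogs had 0.16 (Mrps18a), 0.26 (Mrps18b) and 0.39 (Mrps18c), none of them called. Mrps12, near the decoding centre, had -0.06, and Mrps34 had 0.04. Mrpl4, a large subunit protein, fell at 3000 ppm by 0.49 ± 0.14 (edgeR adjusted p = 0.023), from 11.7 to 14.7 CPM in controls to 8.46 to 11.01 CPM. At 6000 ppm it was at 10.3 to 14.7 CPM, overlapping the controls, and had -0.12.

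The counts of called members in frozen DEHP liver depended on single libraries and on the run. At 6000 ppm 2 members were called without animal 44A, 2 without 8C and 20 without 29B, and a fit with the sequencing run as a term called 0, 0 and 2 at the 3 doses, with member medians of 0.27, 0.25 and 0.30.

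FFPE liver of the same DEHP animals gave changes of like size. In FFPE 3, 11 and 18 members were called higher at 1500, 3000 and 6000 ppm (3.95%, 14.5% and 23.7%, against 4.55%, 6.15% and 7.94% of 13581 genes), and none was called lower (1.31%, 3.24% and 4.43% of all genes). Member medians were 0.26, 0.27 and 0.31, and 69, 71 and 73 members had positive values. At 6000 ppm 7 members were called higher in both preparations, 70.0% of the frozen and 38.9% of the FFPE calls, against 79.0% and 70.1% for all genes tested in both. They were Mrpl12, Mrpl14, Mrpl16, Mrpl17, Mrpl45, Mrpl51 and Mrpl54. Mrpl45 and Mrpl16 were called at all 3 FFPE doses.

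In FFPE Mrpl45 was at 14.1, 13.8, 14.2 and 12.9 CPM in controls and at 16.4, 22.5, 20.6 and 23.04 CPM at 6000 ppm, without overlap, a change of 0.59 (edgeR adjusted p = 0.0028). Mrpl54 was at 6.26, 8.00, 7.08 and 5.44 CPM in controls and at 10.8, 13.4, 10.7 and 9.88 CPM at 6000 ppm. It changed by 0.74 ± 0.16 (edgeR adjusted p = 0.0057), and its groups did not overlap. Mrps36, now known as a component of the 2-oxoglutarate dehydrogenase complex rather than of the ribosome, changed by 0.73 from low levels of 2.48 to 4.76 CPM in controls to 4.55 to 6.75 CPM. Its groups overlapped, its edgeR adjusted p was 0.045, and 6 of the 8 fits that left out an animal ended the call. Mrps27, a small subunit protein with pentatricopeptide repeats, changed by 0.59 (edgeR adjusted p = 0.047), and 1 control library at 7.23 CPM lay far below the other 3 at 11.8 to 14.6. Without that animal, 32A, Mrps27 had 0.41 (edgeR adjusted p = 0.098).

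The DEHP change itself was not shown to differ between preparations. In a fit over both preparations with the animal as a block, the 6000 ppm change was called different for 0 of the 76 members and 0.0% of 14065 genes by edgeR, and 1 member had an unadjusted p under 0.05. FFPE counts were also uneven across fits. At 6000 ppm 6 members were called with only the compared groups in the fit and 8 with no filter on low counts, and leaving out 44A or 64C left 7.

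**Figure D2:**
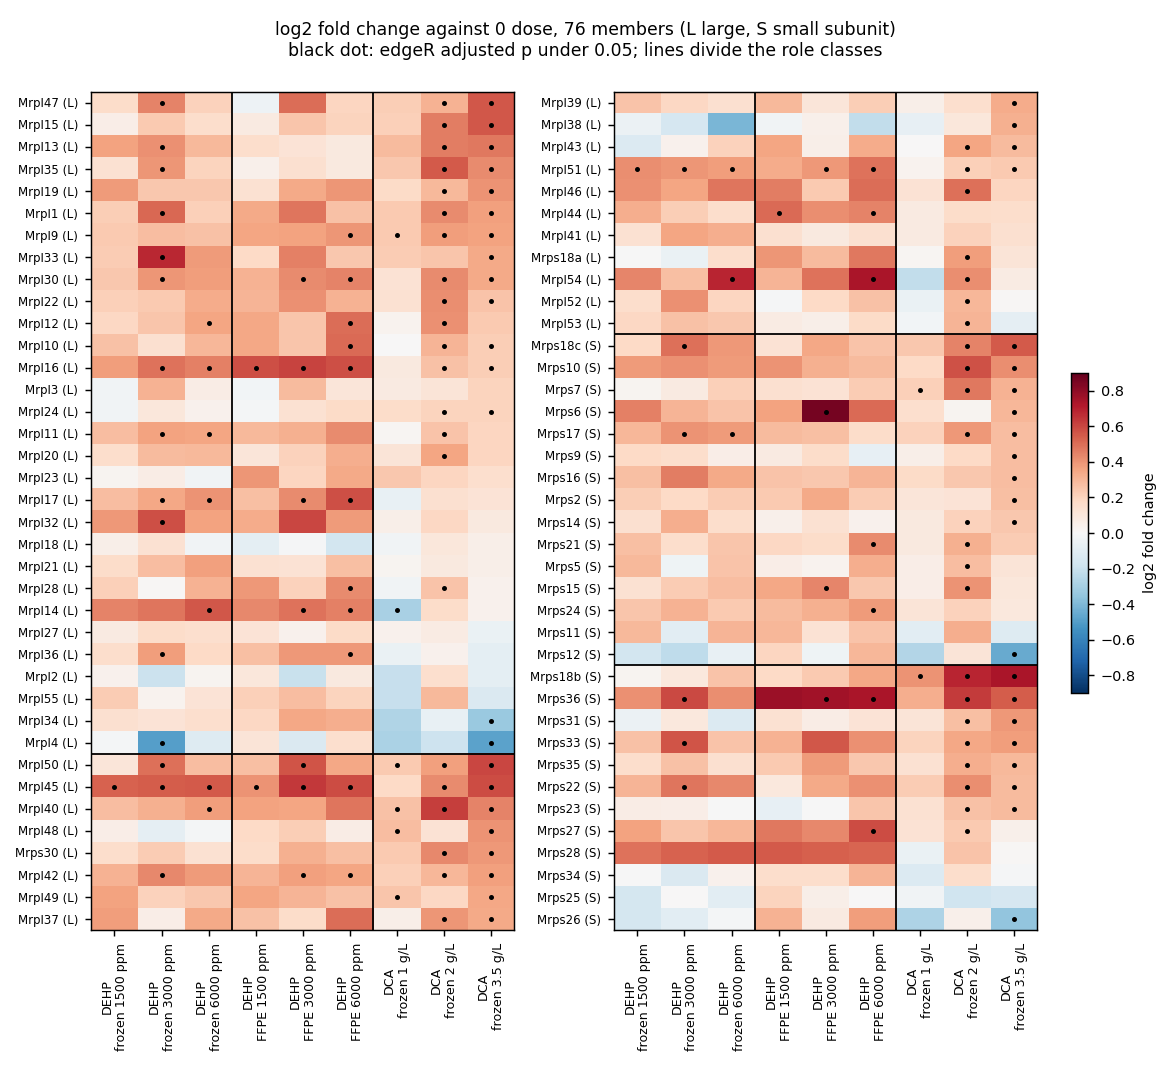
Heat map of the log2 fold change against 0 dose for each of the 76 members (y axis, L large and S small subunit, grouped by role class) in 9 comparisons (x axis, DEHP frozen, DEHP FFPE and DCA frozen), with red for higher, blue for lower and a black dot for an edgeR adjusted p under 0.05. Red covers most of the map, 64 to 73 members are positive at each top dose, and blue with a dot appears for Mrpl4, Mrps12, Mrps26 and Mrpl34 at 3.5 g/L DCA, for Mrpl14 at 1 g/L DCA and for Mrpl4 at 3000 ppm DEHP in frozen liver.

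In frozen liver of DCA mice more members passed the test. At 1 g/L 7 members were higher (9.21%, against 4.11% of 13089 genes) and Mrpl14 was lower by 0.29 (7.01% of all genes were called lower). At 2 g/L 45 were higher (59.2%, against 15.5% of all genes) and none was lower (13.7% of all genes). At 3.5 g/L 41 were higher (53.9%, against 21.9% of all genes) and 4 lower (5.26%, against 21.1%). Member medians were 0.09, 0.27 and 0.23, beside -0.01, -0.01 and -0.02 for all genes. At 2 g/L 3 of the 6 libraries had between 3067666 and 3854949 counts, and the count of called members stayed between 31 and 46 over the alternatives. The doses share their 6 controls. Mrpl9, Mrpl40, Mrpl50, Mrps7 and Mrps18b were called higher at all 3 doses, Mrpl40 being named after its values were seen.

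Every role class contributed to the rise at 3.5 g/L. Of the large subunit members with a bacterial counterpart 13 of 30 were higher and 2 lower, and of those without one 12 of 19 were higher and none lower. Of the small subunit members 9 of 15 and 7 of 12 were higher, and 1 of each was lower.

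Mrps18b, a small subunit protein and 1 of 3 related Mrps18 proteins, showed the greatest rise among called members. It ran from 24.0 to 32.4 CPM in the 6 controls (median 27.3), from 29.2 to 41.8 at 1 g/L (median 36.0), from 40.7 to 53.1 at 2 g/L (median 42.8) and from 38.2 to 50.2 at 3.5 g/L (median 47.5). All libraries at 2 and 3.5 g/L lay above all controls, and those at 1 g/L overlapped them. The change at 3.5 g/L was 0.74 ± 0.09 (n = 6 against 6, edgeR adjusted p = 4.6e-07). Its paralog Mrps18c changed by 0.55 (edgeR adjusted p = 4.0e-05), whereas Mrps18a, the large subunit paralog, had 0.12 and was not called (edgeR adjusted p = 0.31).

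Mrpl50, a large subunit protein without a bacterial counterpart, stood at 35.1 to 40.3 CPM in controls (median 37.5), 44.0 to 57.4 at 2 g/L (median 47.8) and 50.9 to 66.2 at 3.5 g/L (median 56.0). At both doses it lay above every control, and it changed by 0.60 ± 0.07 at 3.5 g/L (edgeR adjusted p = 2.8e-07). Mrpl45 stood at 16.7 to 22.04 CPM in controls (median 19.3) and at 26.7 to 30.9 at 3.5 g/L (median 29.4). It also did not overlap its controls, and changed by 0.59 ± 0.07 (edgeR adjusted p = 4.2e-07). Mrpl15 and Mrpl47, both with bacterial counterparts, each rose by 0.56. Mrps7, of the small subunit head, stood at 39.3 to 44.5 CPM in controls, 54.1 to 61.5 at 2 g/L and 45.7 to 53.3 at 3.5 g/L, and rose by 0.47 and 0.31. Its 2 g/L libraries lay above all of those at 3.5 g/L. Mrps2, Mrps16, Mrps22, Mrps30, Mrps35 and Mrpl1 were also called higher at 3.5 g/L, with values of 0.27 to 0.39. Mrpl3, Mrpl11, Mrpl12, Mrpl41, Mrpl44 and Mrps5 had 0.11 to 0.23 and were not called at that dose. Of these, Mrpl12 (0.41), Mrpl11 (0.26) and Mrps5 (0.28) were called higher at 2 g/L.

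Against the rest, 4 members fell at 3.5 g/L. Mrpl4 ran from 15.8 to 20.7 CPM in controls (median 17.1) and from 10.999 to 14.7 at 3.5 g/L (median 12.4), without overlap, and fell by 0.48 ± 0.12 (edgeR adjusted p = 0.0025). Mrps26 fell by 0.35 (edgeR adjusted p = 0.029), from 7.37 to 9.70 CPM to 5.56 to 7.05 CPM, without overlap. Mrpl34 fell by 0.34 (edgeR adjusted p = 0.046), from 11.02 to 11.3 CPM to 7.63 to 9.51 CPM. Mrps12, which lies at the decoding centre, fell by 0.46 (edgeR adjusted p = 0.031), but its ranges of 10.3 to 17.03 and 7.63 to 13.002 CPM overlapped. Of these 4 calls, that of Mrpl4 held in every alternative run. Leaving out animal 101 or 3 ended each of the other 3 (edgeR adjusted p from 0.053 to 0.082), as did 102 or 5 for Mrps12 (0.063 and 0.068), 6 for Mrps26 (0.059), and 102, 4, 5, 6, 7, 8, 98 or 99 for Mrpl34 (0.052 to 0.076).

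Across members the DCA change at 3.5 g/L went with the GC content of the transcript, as a description over 76 genes of the same libraries (Pearson's r = -0.48, Spearman's rho = -0.51, against -0.21 and -0.29 over all genes). Members with a GC content under 45% had a median of 0.37, those from 45% to 50% 0.29, those from 50% to 55% 0.16 and those of 55% or more 0.04. The members called lower, Mrpl4, Mrpl34, Mrps12 and Mrps26, had 60.1%, 58.3%, 56.5% and 49.2% GC. Mrpl50, which rose, had 42.3%, and Mrps18b, with the greatest rise among called members, 52.6%. At 2 g/L r was -0.15, and at 6000 ppm DEHP in frozen liver -0.06.

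**Figure D3:**
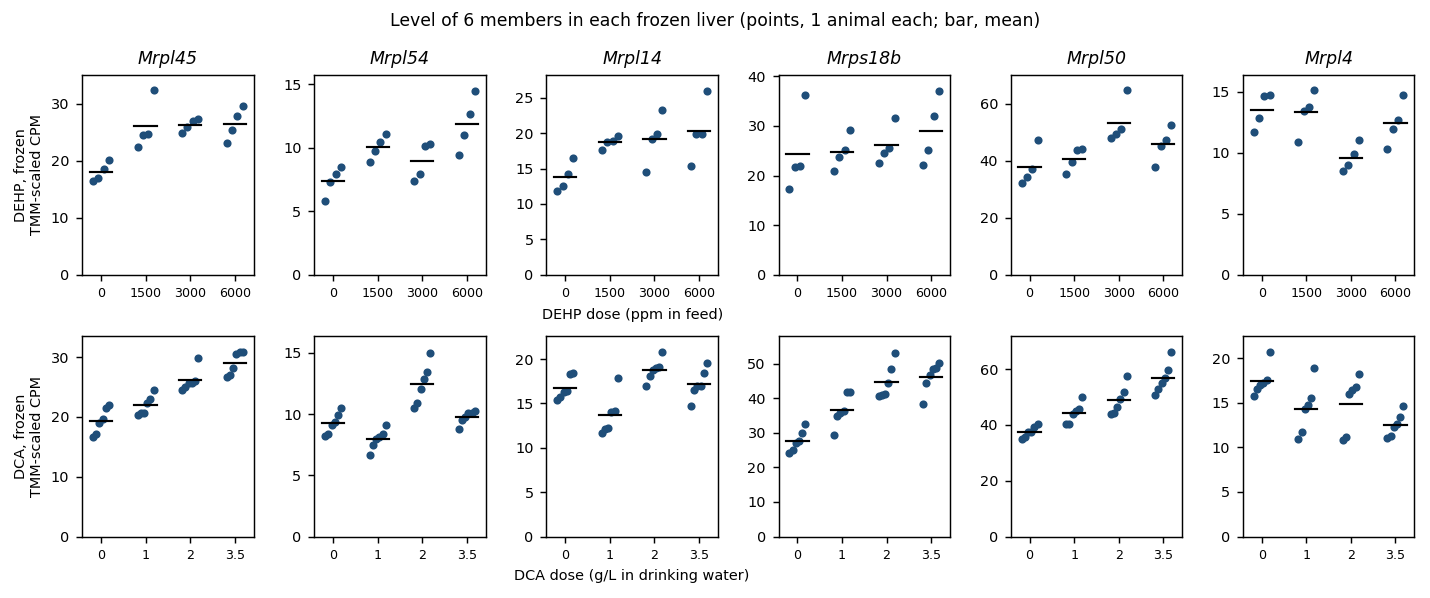
Level of 6 members in each frozen liver (y axis, TMM-scaled CPM from 0) by dose (x axis), DEHP in the upper row and DCA in the lower, with 1 point per animal and a bar for the mean. Mrpl45 lies above its controls at every DEHP dose and at 2 and 3.5 g/L DCA, Mrps18b and Mrpl50 rise with DCA, and Mrpl4 lies below its controls at 3000 ppm DEHP and 3.5 g/L DCA.

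Compared with each other at their top doses in frozen liver, the chemicals changed most members by amounts that were not shown to differ. The doses, routes, collection years and sequencing runs of the 2 studies differ, so the chemical cannot be told apart from them. In a fit over both sets, 2 members had a higher DEHP than DCA change (2.63%, against 6.48% of 13219 genes) and 4 a lower one (5.26%, against 6.85%). Neither share was above that of all genes. Mrpl54 (difference 0.62 ± 0.16, edgeR adjusted p = 0.0098) rose with DEHP, whereas at 3.5 g/L DCA it ran from 8.80 to 10.2 CPM against 8.22 to 10.5 in controls, the same range. At 2 g/L, however, all its libraries (10.5 to 15.01 CPM) were above those controls. Mrpl14 differed by 0.54 ± 0.17 (edgeR adjusted p = 0.029), and without animal 8C by 0.40 (adjusted p = 0.11). Mrpl38, a protein of the large subunit's central protuberance, differed by -0.72 (edgeR adjusted p = 0.011). In DEHP mice it was at 26.1, 27.8, 25.2 and 22.03 CPM in controls and at 18.9, 23.8, 12.1 and 21.3 CPM at 6000 ppm, overlapping, while in DCA mice it ran from 29.5 to 37.6 CPM in controls and from 36.4 to 44.6 at 3.5 g/L. Mrps31, of the small subunit head, differed by -0.49 (edgeR adjusted p = 0.0060), with -0.12 for DEHP and 0.39 for DCA. Mrpl15 (-0.38) and Mrpl48 (-0.41), the latter also of the central protuberance, were the other pair, and leaving out animal 32A for Mrpl15 (edgeR adjusted p = 0.051) or 29B, 45C or 64C for Mrpl48 (0.056 to 0.091) ended the call.

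Of the members called higher at the top doses, Mrpl16, Mrpl40, Mrpl45, Mrpl51 and Mrps17 were common to both chemicals, 50.0% of the DEHP and 12.2% of the DCA calls. Over all genes tested in both sets the shares were 62.0% and 20.5%, so neither share of the members was above that of all genes. Over all dose comparisons in either preparation, 12 members were never called, among them Mrpl3, Mrpl18, Mrpl41, Mrps11, Mrps25 and Mrps34.

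Between preparations, how many of these genes were called lower or higher depended on scaling. In the 16 DEHP animals, paired within animal and scaled by TMM, 57 of the 76 members were lower in FFPE than in frozen liver (75.0%, against 31.3% of 14065 genes) and 6 were higher (7.89%, against 32.9%). With total counts after leaving out Rn45s and the clone-named genes, 30 were lower and 19 higher. The member median was -0.31 under TMM, where all genes had 0.02, and -0.06 under the other scaling, where all genes had 0.26. Relative to the median of all genes, members stood at -0.31 to -0.35 in every fit that was run. A change of scaling moves members and all genes alike, so this range says nothing about the choice of scaling. Measured as a share of all counts, members were lower in FFPE in 16 of 16 animals with a median ratio of 0.802, but after leaving out Rn45s and the clone-named genes in 7 of 16, with a ratio of 1.01. The frozen and FFPE residuals of animals 35A and 67C correlated less within the animal than those of the other 14 (r = 0.072 and 0.095, against a median of 0.46 over all 16 animals). Without them 62 members were called and the median was -0.33.

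Mrpl12, Mrpl43 and Mrps34 had the largest values among the members called higher in FFPE by TMM, and were higher in FFPE under both scalings. Mrpl12 ran from 18.8 to 29.2 CPM in frozen (median 22.9) and from 25.3 to 42.5 CPM in FFPE liver (median 34.2). All 16 animals had more in FFPE, although the ranges overlapped between animals, and the difference was 0.59 ± 0.05 (n = 16 pairs, edgeR adjusted p = 3.6e-09). Mrpl43 was also higher in FFPE in 16 of 16 animals (0.54 ± 0.08, edgeR adjusted p = 2.2e-06). It overlaps Twnk on the opposite strand, and the part of that overlap was not tested. Mrps34 was higher in 15 of 16 (0.46 ± 0.08, edgeR adjusted p = 1.4e-05). Mrps26 (0.25), Mrpl37 (0.21) and Mrps2 (0.17) were the other 3, in 12, 12 and 14 animals, Mrpl37 being named after its values were seen.

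At the other end, Mrpl22, Mrps22, Mrpl32, Mrps31 and Mrpl47 were lower in FFPE by TMM in 16 of 16 animals. Mrpl22 ran from 9.70 to 13.9 CPM in frozen (median 11.3) and from 5.12 to 8.90 in FFPE liver (median 6.81). These ranges did not overlap, and the difference was -0.77 ± 0.07 (edgeR adjusted p = 1.2e-09). Mrps31 ran from 23.3 to 33.9 CPM in frozen and from 13.7 to 19.7 CPM in FFPE, also without overlap (-0.74 ± 0.05, edgeR adjusted p = 1.3e-11). Mrpl54 did not separate by preparation (-0.01, edgeR adjusted p = 0.95), with medians of 9.31 and 8.81 CPM.

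The preparation difference went with GC content, in the members (r = 0.51, rho = 0.49 over 76 genes) and in all genes (r = 0.52, rho = 0.55). Members under 45% GC had a median of -0.57, those from 45% to 50% -0.43, those from 50% to 55% -0.27 and those of 55% or more -0.01. All genes in the same classes had -0.26, -0.08, 0.10 and 0.37, so members were lower than other genes in each class. Over all genes the difference also went with the log2 transcript length (r = 0.24, rho = 0.26), though not across the members (r = -0.02, rho = 0.002). Members have shorter transcripts than other genes, and the GC classes were not matched for length. Cytosolic ribosomal proteins, 82 genes tested, had 54 lower and 8 higher in FFPE and a median of -0.22 by TMM.

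**Figure D4:**
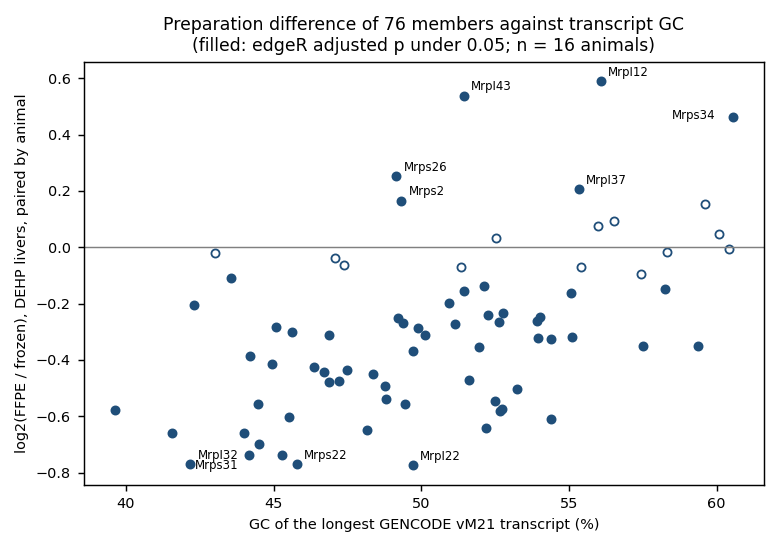
The log2 ratio of FFPE to frozen (y axis, TMM scaling, 16 animals paired) for each of the 76 members against the GC content of its longest transcript (x axis, percent), filled where edgeR's adjusted p was under 0.05. Most points lie below 0 and rise to the right, and Mrpl12, Mrpl43 and Mrps34 lie highest at 0.46 to 0.59.

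In FFPE libraries of DCA mice many of these genes had no counts, to an extent that varied widely between libraries. In frozen liver of both sets and in DEHP FFPE liver every member had counts in every library. In DCA FFPE liver every member had no counts in 8 to 21 of the 24 libraries (median 15), 61 members were missing from at least 12 libraries, and none was missing from all. The number of members without a count ran from 4 to 65 in the 9 libraries of run V18431 (1385869 to 8434613 total counts) and from 17 to 76 in the 15 of run W48315 (109292 to 653006 total counts). That is 5.26% to 85.5% of members in the first run, against 29.8% to 77.0% of all genes in the table, and 22.4% to 100% in the second, against 46.9% to 92.7%. In animal 5, for example, 5.26% of members and 29.8% of all genes had no count, and in animal 100 89.5% and 88.3%. The controls and 3 of the 6 animals at 1 g/L were in the first run, and all other treated animals in the second, so run and dose cannot be told apart. In 1 library, at 1 g/L, no member had a count among 157320. The 3 frozen livers of the shallow lane, at 3067666 to 3854949 counts, missed no member. An FFPE control of 3422742 counts, 74.4% of them from Rn45s, missed 54. The FFPE control of animal 5, with 8434613 counts, 73.4% of them from Rn45s, missed 4. The part of total count and of Rn45s in these numbers was not tested.

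Mrps2 had counts in the most libraries, with no count in 8 libraries and up to 187 counts in the others. Mrpl37, Mrpl50 and Mrps7 were missing from 9 libraries each, and Mrpl12 from 11. Mrpl11 and Mrps36 were missing from 21 of 24, with 78 and 44 counts over all libraries, and Mrpl52, among the highest members in frozen liver by FPKM, from 19. Mrps21, the highest by FPKM, was missing from 15. FPKM divides by transcript length, and the longest transcripts of Mrpl52 and Mrps21 have only 463 and 488 bases. Their median counts in frozen DCA libraries were 151 and 271, against 495 for Mrps2 and 683 for Mrps7. Only 12 members could be tested (15.8% of those tested in frozen liver, against 36.4% of all genes, 33.1% of genes in the members' range of frozen levels and 91.5% of cytosolic ribosomal proteins). The cytosolic genes are not matched in level, with a median log2 CPM of 6.58 in frozen DCA liver against 3.95 for the members. A count of 0 allows up to 3 counts, which is 0.356 CPM in the deepest and 27.4 CPM in the shallowest of these libraries, above the frozen level of most members in the latter, and covers counting error only.

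**Figure D5:**
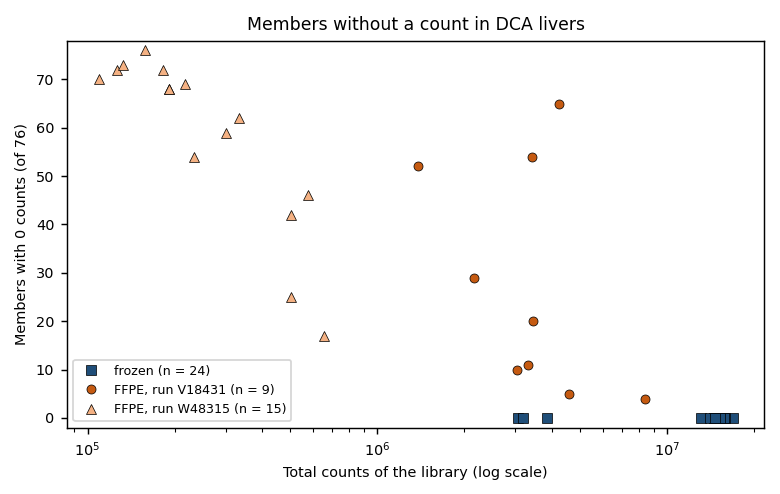
Number of the 76 members without a count (y axis) against the total counts of each DCA library (x axis, log scale), frozen as squares, FFPE of run V18431 as circles and FFPE of run W48315 as triangles. All 24 frozen libraries lie at 0, whereas FFPE libraries run from 4 to 76.

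No DCA dose effect was detectable on members in FFPE. At 1, 2 and 3.5 g/L 0 of the 12 tested members were called by edgeR (0.126%, 0.335% and 0.293% of 4772 genes were) and 0 by DESeq2, and 0, 0 and 1 had an unadjusted p under 0.05. The 3.5 g/L change was called different between preparations for 0 of 76 members (0.0607% of 11526 genes), 8 having an unadjusted p under 0.05, and for 2 in a fit without the animal as a block. Most members entered that fit only through the frozen libraries, and in FFPE run and dose cannot be told apart. Among the 8, Mrpl21 (-9.26) was at 0 in every FFPE library of this dose. Nothing is read from these counts. Between preparations 70 members were lower in FFPE (92.1%, against 59.4% of 11526 genes) and none higher (1.21% of all genes), with a median of -2.60 against -1.54 for all genes. Only 12 members passed the filter on low counts in FFPE alone, and the others entered this fit through the frozen libraries, where they are high, so the count and the median describe the fit and nothing is read from them. As a share of all counts the members were lower in FFPE in 24 of 24 animals, with a median ratio of 0.235, but after leaving out Rn45s and the clone-named genes in 21 of 24, with a ratio of 0.810. Restricted to the 9 animals with FFPE in run V18431, 8 were called and the median was -2.02. Fitted values in all animals ran from -5.35 for Mrpl11, at 0 in 21 of 24 FFPE libraries, to -0.69 for Mrpl43, which was not called (edgeR adjusted p = 0.28). Neither gene passed the filter in FFPE alone, so nothing is read from this order. Fitted values of genes so often at 0 depend on the tool: DESeq2 called 35 and gave a median of -1.21.

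The genes that work with these ribosomes were taken from lists of their own, beside which 7.05% of all genes were called higher and 4.72% lower at 6000 ppm DEHP, and 21.9% and 21.1% at 3.5 g/L DCA. Of 11 mitochondrial translation factors, 2 rose at 6000 ppm DEHP in frozen liver, the elongation factor Gfm1 by 0.48 and the recycling factor Gfm2 by 0.32. At 3.5 g/L DCA 5 rose, among them the initiation factor Mtif2 by 0.48 and the release factor family member Mtrf1 by 0.73. Among ribosome assembly genes, Ddx28, an RNA helicase, rose by 0.52 with DEHP (1 of 17 called) and by 0.60 with DCA (5 of 19), and Fastkd2, an RNA-binding protein, by 0.64 with DCA. Of 9 genes of mitochondrial DNA transcription 6 rose at 3.5 g/L DCA, such as the elongation factor Tefm by 0.69, and 0 of the 6 tested at 6000 ppm DEHP. Of 17 mitochondrial tRNA synthetases 4 rose (23.5%, near the share of all genes) and 2 fell at 3.5 g/L DCA, and 0 were called at 6000 ppm DEHP. Ribosomal proteins of the mitochondrial ribosome with other names gave 2 higher and 1 lower of 7 at 3.5 g/L, with Ptcd3 at 0.49 and Dap3 at 0.25. Cytosolic ribosomal proteins gave 5 higher and 27 lower of 82 at that dose, with a median of -0.02 beside 0.23 for the mitochondrial genes, and 1 higher and none lower at 6000 ppm DEHP, with a median of 0.18 beside 0.25.

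Of 10 regulators of nuclear genes for mitochondria, Nrf1 fell by 0.42 and the coactivator Pprc1 by 1.13 at 6000 ppm DEHP, and the coactivator Ppargc1a fell by 0.87 and Yy1 rose by 0.19 at 3.5 g/L DCA. Grouped by promoter motif, at 6000 ppm DEHP in frozen liver 4 of the 12 members with an NRF1 match were called higher, 2 of the 24 with an ETS match, 0 of the 8 with a YY1 match and 4 of the 28 with none of the 3. The median changes of these groups were 0.31, 0.25, 0.27 and 0.26. In FFPE the counts were 8, 4, 4 and 4, with medians of 0.44, 0.31, 0.39 and 0.27. At 3.5 g/L DCA 5, 11, 3 and 17 were called higher and 1, 3, 0 and 0 lower, with medians of 0.23, 0.21, 0.11 and 0.23. These values are descriptions with no test, and a member can be in more than 1 group.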

How the data were processed

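The authors deposited gene-level expected counts and FPKM values for 80 libraries. Per the submitters' processing notes they used CASAVA, STAR 2.4 and RSEM with the mm10 build, and the RSEM settings and annotation are not given in the sources used here. The authors' FPKM values were used for levels between genes only. The deposited expected counts were rounded to whole numbers. Genes were kept by edgeR's filterByExpr (minimum count 10) and scaled by TMM. They were tested with the quasi-likelihood test of edgeR 4.0.16 in R 4.3.3, with p-values adjusted by Benjamini-Hochberg over all genes and a call at an adjusted p under 0.05. Each dose was compared with 0 in a fit over all 4 dose groups of a chemical and preparation. FFPE was compared with frozen with the animal as a block, since both came from the same animals. Residuals matched best within the animal in 13 of 16 DEHP and 13 of 24 DCA animals. The labels name each library's animal, so samples of a group are separate animals. The self-test on simulated counts recovered 1% of 1.3-fold and 57% of 2-fold changes in frozen DEHP livers, and 32% and 82% in frozen DCA livers. It recovered 0% and 48% in FFPE DEHP livers and 0% of both in FFPE DCA livers.

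Members and gene lists were chosen with earlier results of these data known. The text names the called members of the most change at the top doses and between preparations, a set list of members by role, the highest and lowest members by FPKM, and for other lists the called genes of the smallest adjusted p. Mrpl37, Mrpl40 and members named only as pairs, copies, missing promoters, shared calls or never-called genes were named after their values were seen. Alternatives were DESeq2 1.42.0, its size factors, other filters, a second deposited count table, the sequencing run as a term, only the compared groups, other scalings and leaving out each animal in turn. After the values were seen, fits without animals 35A and 67C, with only the run V18431 animals, without the 3 shallow frozen libraries, and with total counts after leaving out Rn45s and the clone-named genes were added.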

Additional observations from a re-analysis of the deposited data

Results flagged for a closer look

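Of 16 groups, 2 held a library whose share of counts in the 76 genes stood apart from the rest by Dixon's test at the 95% level, which flags about 5% of groups by chance. In FFPE liver at 3.5 g/L DCA, animal 97 had 0.0939%, against 0.0126% to 0.0333% in the other 5, and it was the deepest library of that group at 653006 counts. In frozen liver at 2 g/L DCA, animal 75 had 0.175%, against 0.161% to 0.166%, and was 1 of the 3 shallow libraries.

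For 6 members the change at 6000 ppm DEHP differed from that at 3.5 g/L DCA in frozen liver by the test of the difference. Over all 13219 genes 6.48% had a higher and 6.85% a lower DEHP change, and the members' shares were not above these. The DEHP change was higher for Mrpl54 (difference 0.62) and Mrpl14 (0.54), and lower for Mrpl38 (-0.72), Mrps31 (-0.49), Mrpl48 (-0.41) and Mrpl15 (-0.38), on the log2 scale. The calls of Mrpl14, Mrpl15 and Mrpl48 ended when certain single animals were left out. The studies' other differences cannot be told apart from the chemical.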

How the results depend on the processing

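The median change of the 76 genes stayed positive at every DEHP dose in both preparations and every frozen DCA dose under all alternatives, while counts of calls moved. In frozen DEHP liver, where 2, 21 and 10 members were called at 1500, 3000 and 6000 ppm, DESeq2 called 4 at 1500 and 18 at 6000 ppm, 0 and 16 with the second deposited table, the sequencing run as a term 0, 0 and 2, the compared groups only 3 at 6000 ppm, the filter of 1 CPM 16 at 6000 ppm, and leaving out an animal gave 1 to 4, 11 to 20 and 2 to 20. In FFPE DEHP liver, with 3, 11 and 18 called, DESeq2 called 7 and 18 at 1500 and 3000 ppm, no filter on low counts gave 0, 7 and 8, the second table none (0) at 1500 ppm, the run as a term 1 and 3 at 1500 and 3000 ppm, the compared groups only 3 and 6 at 3000 and 6000 ppm, and leaving out an animal 0 to 2, 3 to 12 and 7 to 18. At 1 g/L DCA in frozen liver, with 8 called, the run as a term gave 3 and leaving out an animal 4 to 18. Counts at 2 and 3.5 g/L moved by less than 1.5 times. The cause of these shifts was not tested, apart from the fewer samples of the fits that leave out an animal or hold only the compared groups. The second deposited table also gave fewer samples in frozen DEHP liver. It holds 31 DEHP libraries against 32 in the main one, and lacks a frozen library of the 1500 ppm group. Its frozen count of 0 at that dose therefore rests on fewer animals.

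Between preparations, the 63 calls in DEHP became 61 without the replicate block. In DCA the 70 calls became 35 with DESeq2, 37 with its size factors and 8 with only the 9 run V18431 animals. The test of the 3.5 g/L change between preparations called 2 members without the replicate block, against 0 with it. With total counts after leaving out Rn45s and the clone-named genes, which moved the median of all genes from 0.02 to 0.26, these DEHP members changed sign to higher in FFPE: Mrpl54 (0.24), Mrpl34 (0.23), Mrpl17 (0.23), Mrpl19 (0.21), Mrpl9 (0.19), Mrpl13 (0.18), Mrps7 (0.18), Mrpl35 (0.14), Mrpl28 (0.10), Mrpl50 (0.045) and Mrps27 (0.010). Thinning DCA libraries to the smallest total left no member to test. Over 3995 values of named genes under alternatives, 545 lost and 142 gained a call and 11 reversed. In the FFPE DCA libraries a count of 0 allows 0.356 to 27.4 CPM.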
